A study of Mus musculus with 12 samples.

Results

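The interferon regulatory factor (IRF) genes of mouse splenic B cells were followed by RNA-Seq from the naive state to plasmablasts. Members were taken by Entrez gene ID from the 27179 genes of the count table and comprised 8 genes, Irf1, Irf2, Irf3, Irf4, Irf5, Irf7, Irf8 and Irf9, all of which passed the filter on low counts. The 12 libraries were 2 biological replicates of each of 6 stages. Unstimulated naive B cells were sorted from spleens of male C57BL/6 mice as B220+ cells positive for IgM, high for IgD and negative for TCRβ. The other 5 stages had received 25 µg/ml lipopolysaccharide (LPS) from Salmonella typhosa in culture, after isolation by negative selection. Activated cells that had not yet divided were sorted for CD69 and the highest CellTrace Violet at 3, 10 and 33 h, while on day 4 the expanded B cells were sorted as positive for CD22 and negative for CD138, and plasmablasts the other way round. The labels name no transgene or deleted allele, and expanded cells and plasmablasts were gated by markers rather than by lineage tracing.

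IRFs share a DNA-binding domain that contacts GAAA repeats, and they divide by role. IRF4 and IRF8 are the lymphoid and myeloid members, which bind composite elements together with the ETS factors PU.1 (Spi1) and SPI-B (Spib) or with AP-1 factors such as BATF. IRF4 is required for class switching and plasma cell formation, whereas IRF8 is known for its part in B cell lineage and germinal centre programs. IRF3, IRF5 and IRF7 are activated by phosphorylation downstream of Toll-like receptors and nucleic acid sensors, IRF9 is the DNA-binding subunit of a complex with STAT proteins that answers type I interferon, and IRF1 and IRF2 are an activator and an antagonist that compete for the same sites.

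In GRCm38.p6 (mm10) Irf1 lies on chromosome 11 (53770014 to 53778374), Irf2 and Irf8 on chromosome 8 (46739745 to 46847458 and 120736358 to 120756694), and Irf3 and Irf7 on chromosome 7 (44997648 to 45002848 and 141263183 to 141266499). Irf4 lies on chromosome 13 (30749233 to 30766981), Irf5 on chromosome 6 (29526130 to 29541869) and Irf9 on chromosome 14 (55603985 to 55610030). RefSeq start site windows were found for all 8 genes, 11 windows in all, since Irf1, Irf8 and Irf9 each have a second start. The 250 bases before the start are printed for Irf4 and Irf8, whose ratio turned over between naive cells and plasmablasts, and for Irf1 and Irf2, which moved together, 5′ to 3′ on the plus strand. The windows are chr13:30748983-30749232, chr8:120736108-120736357, chr11:53769764-53770013 and chr8:46739495-46739744. Capitals mark matches, on either strand, to GAAANNGAAA (an interferon-stimulated response element, ISRE), GGAANNGAAA (an ETS and IRF composite element), TTCNNNGAA (a gamma-activated site), TGANTCA (an AP-1 site), TATAAA (the core of many promoters) and the NF-kB site.
Irf4: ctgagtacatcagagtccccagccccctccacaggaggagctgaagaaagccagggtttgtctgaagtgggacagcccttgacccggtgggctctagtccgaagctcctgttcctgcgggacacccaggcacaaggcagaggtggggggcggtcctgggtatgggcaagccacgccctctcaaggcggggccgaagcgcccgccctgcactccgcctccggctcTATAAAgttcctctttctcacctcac
Irf8: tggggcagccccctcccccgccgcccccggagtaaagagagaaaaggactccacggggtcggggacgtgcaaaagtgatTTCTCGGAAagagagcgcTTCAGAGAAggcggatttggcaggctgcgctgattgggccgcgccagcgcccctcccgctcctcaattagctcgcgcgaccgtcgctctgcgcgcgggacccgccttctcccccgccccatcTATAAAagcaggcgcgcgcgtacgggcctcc
Irf1: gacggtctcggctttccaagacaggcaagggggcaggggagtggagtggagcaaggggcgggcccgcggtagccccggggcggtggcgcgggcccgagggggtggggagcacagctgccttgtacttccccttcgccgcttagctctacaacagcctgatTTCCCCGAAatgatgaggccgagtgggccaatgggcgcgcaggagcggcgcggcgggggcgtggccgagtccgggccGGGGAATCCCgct
Irf2: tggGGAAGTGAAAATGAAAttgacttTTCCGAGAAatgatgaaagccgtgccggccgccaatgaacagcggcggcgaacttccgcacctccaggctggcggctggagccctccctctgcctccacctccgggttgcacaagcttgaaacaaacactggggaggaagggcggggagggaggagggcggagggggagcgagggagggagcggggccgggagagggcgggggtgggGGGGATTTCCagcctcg

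Of the 4 windows, that of Irf2 held the ISRE letters, and the composite element overlapped them there. ISRE letters occurred in 2.98% and composite letters in 2.30% of the 32851 RefSeq windows cut to the same length, and neither occurred in a window of another member. Gamma-activated site letters stood once in the Irf1 window, once in the Irf2 window and 2 times in the Irf8 window, against 7.02% of all windows with a match. NF-kB letters stood in the Irf1 and Irf2 windows (7.25% of all windows), and TATAAA in those of Irf4, Irf7 and Irf8 (12.4% of all windows). The AP-1 letters, found in 6.75% of all windows, were in none of the 11. A match is a run of letters and not a measured binding site, and the Irf3, Irf5 and Irf9 windows held no match to the 6 motifs.

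Total counts ran from 23026619 to 60585587 per library, and the members' own counts from 235 (Irf7) to 74076 (Irf4) in a library. The expression level is given in RPKM for replicate 1 and then replicate 2, reads per exon length and library size after TMM scaling, and a gene is called DE when edgeR's glmTreat places its change beyond 1.5-fold at an adjusted p of 0.05 over 12750 tested genes. B cell markers were present throughout, with Cd79a between 454 and 2533 RPKM across libraries. Cd22 was at 0.432 and 0.368 RPKM in plasmablasts against 101 and 96.1 RPKM in the expanded libraries, and Sdc1, which encodes CD138, at 47.6 and 48.0 against 1.27 and 1.71. The macrophage genes Lyz2 (141 and 60.2 RPKM) and Csf1r (7.34 and 4.47 RPKM) were read in the naive libraries, while Lyz2 had at most 2 counts in every later library. Itgam, Itgax, Cd14 and Clec9a were also higher in naive cells than at 3 h and 10 h. Adgre1, another macrophage gene, was at 3.73 and 3.78 RPKM in naive cells and 4.23 and 4.35 in expanded cells. Flt3 was at 0.888 and 0.774 RPKM in naive cells and 6.96 and 6.85 at 10 h. The 8 myeloid and dendritic markers summed to 182 and 92.1 CPM (counts relative to the library's total) in naive cells and 9.81 to 94.5 CPM afterwards, the expanded libraries overlapping with the naive ones, and 5 erythroid markers to 191 and 142 CPM and at most 2.01 CPM. T cell markers summed to 9.06 to 66.7 CPM, and Lck made up most of the sum in the naive and 3 h libraries. Lck had 2291 and 1916 counts in naive cells, against 20 and 17 for Cd3d. At 3 h it had 517 and 1124 counts, while Cd3d, Cd3e, Cd3g and Cd4 had 0 in both libraries. Cd3g was highest in plasmablasts, at 1.37 and 0.931 RPKM (33 and 27 counts) against 0.433 and 0.455 RPKM in naive cells (15 and 12 counts). Cd3d and Cd4 were lower in plasmablasts than in naive cells, and Cd3e and Cd8a had 0 counts there. The sum of the 3 markers of plasmacytoid dendritic cells was highest in plasmablasts, as given beside Irf7. Of these markers, Siglech was instead highest in naive cells, with 40 and 21 counts. In bulk RNA, fewer cells of a type and less RNA per cell cannot be told apart.

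The first transition moved most of the family. Between naive cells and 3 h, 6 of the 8 genes were DE, beside 45.3% of all tested genes, with Irf4, Irf5 and Irf8 up (21.0% of tested genes were up) and Irf1, Irf2 and Irf9 down (24.3%). From 3 h to 10 h 3 members were DE, beside 30.8% of tested genes. All 3, the genes that had risen, were down (13.4% of tested genes) and none was up (17.4%). From 10 h to 33 h 0 of the 8 were DE by glmTreat, beside 14.5% of tested genes (10.1% up and 4.45% down), and DESeq2's Wald test against the same fold also called 0. From 33 h to the expanded cells Irf7 and Irf9 were DE, both down (3.66% of tested genes) with none up (6.94%), so that 2 of 8 stood beside 10.6%. From expanded cells to plasmablasts 4 were DE, beside 26.1% of tested genes, with Irf1 and Irf7 up (13.9%) and Irf5 and Irf8 down (12.2%). Between the ends of the course, naive cells and plasmablasts, 5 were DE, beside 50.0%, with Irf4 and Irf7 up (26.6%) and Irf5, Irf8 and Irf9 down (23.4%).

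Changes of any size were read from the quasi-likelihood F-test in edgeR, by which 7 members passed at the first transition (71.0% of tested genes), 4 from 3 h to 10 h (62.3%), 3 from 10 h to 33 h (45.5%), 6 to expanded cells (39.6%), 7 to plasmablasts (56.9%) and 8 between the ends of the course (74.1%). The 3 between 10 h and 33 h were Irf1, Irf4 and Irf5, each lower at 33 h. Without replicate 1 at 10 h Irf7 was DE there, and without replicate 2 at 10 h or replicate 1 at 33 h only 1 member passed the F-test. Without replicate 1 of the expanded cells 3 members passed between 33 h and that stage. From 3 h to 10 h 5 members were DE without replicate 2 at 10 h, Irf7 and Irf9 being added. The median absolute log2 change of the 8 genes was 1.40 at the first transition, against 0.84 over all tested genes, and 0.32 against 0.39 between 10 h and 33 h. Consecutive comparisons share the libraries of the stage between them, so a rise followed by a fall is not 2 independent results.

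**Figure D1:**
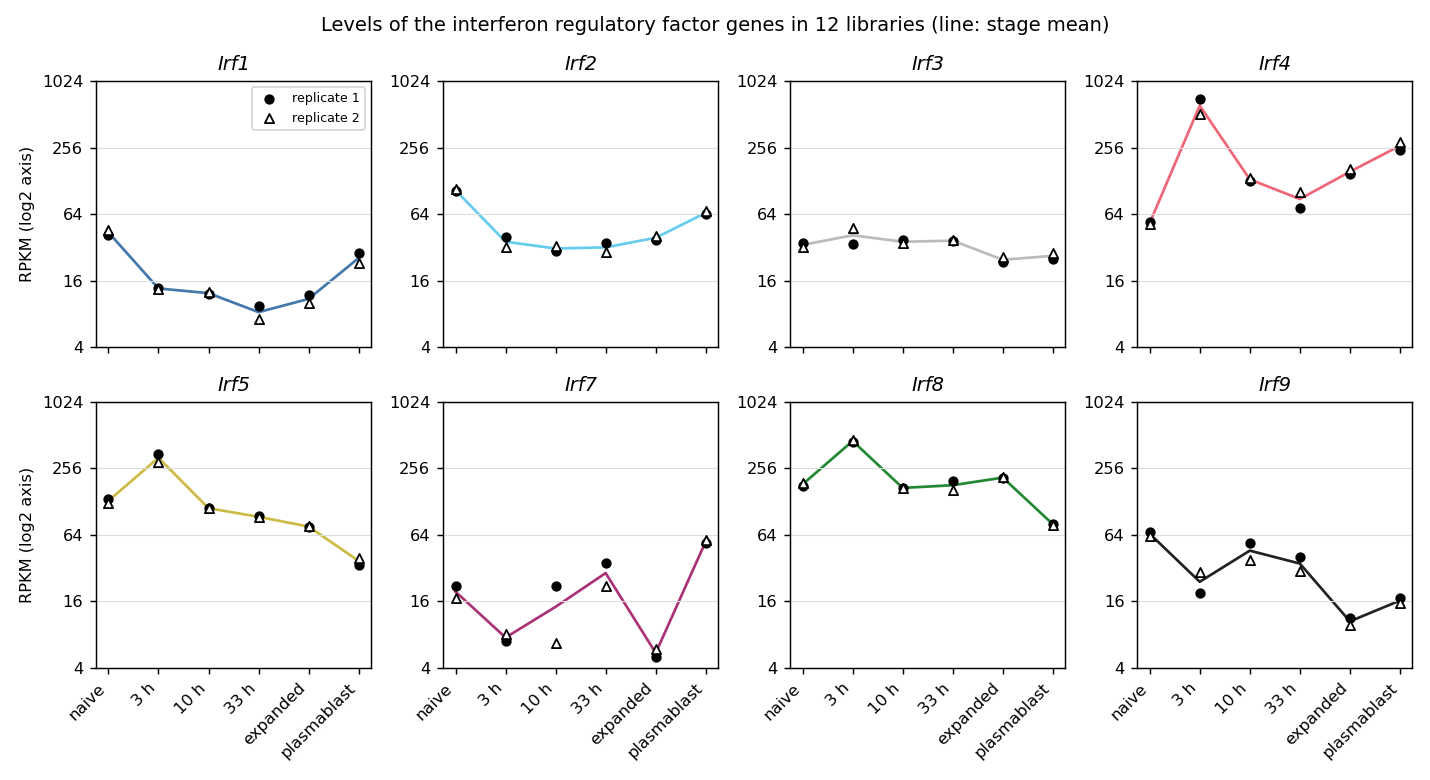
RPKM (log2 axis) of each of the 8 genes in the 12 libraries, in the order of the stages, with replicate 1 as a filled circle, replicate 2 as an open triangle and a line through the stage means. Irf4, Irf5 and Irf8 peak at 3 h, Irf1 and Irf2 fall from the naive stage and are higher again in plasmablasts, Irf3 stays between 23.5 and 47.9 RPKM, and the 10 h replicates of Irf7 lie apart.

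Irf4 showed the widest range of the family, 11.6-fold between its highest and lowest stage means. Its level was 54.1 and 52.3 RPKM in the naive libraries, 709 and 519 in the 3 h pair, 128 and 136 in the 10 h pair, 73.3 and 102 in the 33 h pair, 147 and 163 in the expanded pair and 242 and 290 in the plasmablast pair. No library of any of these stages overlapped with a library of the next stage in the order of levels. The rise to 3 h was 3.53 ± 0.18 (log2 fold change ± SE, glmTreat adjusted p = 2.1e-08), and the fall to 10 h was -2.22 ± 0.17 (adjusted p = 3.7e-06). The later climb came in steps that did not individually pass the 1.5-fold test. The step from 33 h to expanded cells was 0.82 ± 0.17 (95% interval 0.46 to 1.18, glmTreat adjusted p = 0.18), and it passed without replicate 2 at 33 h (1.08, adjusted p = 0.019 by edgeR) and with no filter on low counts (0.78, adjusted p = 0.044). The step to plasmablasts was 0.78 ± 0.17 (glmTreat adjusted p = 0.14), and with only the 4 libraries of that step in the fit it passed (0.80, adjusted p = 0.026 by edgeR). Both steps differed from 0 by the F-test (adjusted p = 0.0023 and 0.0017 in edgeR). From naive cells to plasmablasts Irf4 was DE, 2.32 ± 0.17 higher on the log2 scale (glmTreat adjusted p = 6.0e-07), which is less than its own level at 3 h.

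Irf8 rose beside Irf4 at 3 h and parted from it in plasmablasts. It was at 178 and 189 RPKM in the naive libraries, 441 and 463 in the 3 h pair, 170 and 171 in the 10 h pair, 195 and 165 in the 33 h pair, 210 and 212 in the expanded pair and 80.9 and 78.7 in the plasmablast pair. The naive, 10 h and 33 h values overlapped, the expanded cells lay just above them, and both plasmablast libraries lay below all others. The changes were 1.30 ± 0.09 to 3 h (adjusted p = 1.2e-06), -1.41 ± 0.09 to 10 h (adjusted p = 1.2e-06) and -1.40 ± 0.09 from expanded cells to plasmablasts (adjusted p = 1.1e-06, all by glmTreat). Between 10 h and expanded cells no step was DE, and the fitted change from 10 h to 33 h had a 95% interval of -0.11 to 0.27.

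**Figure D2:**
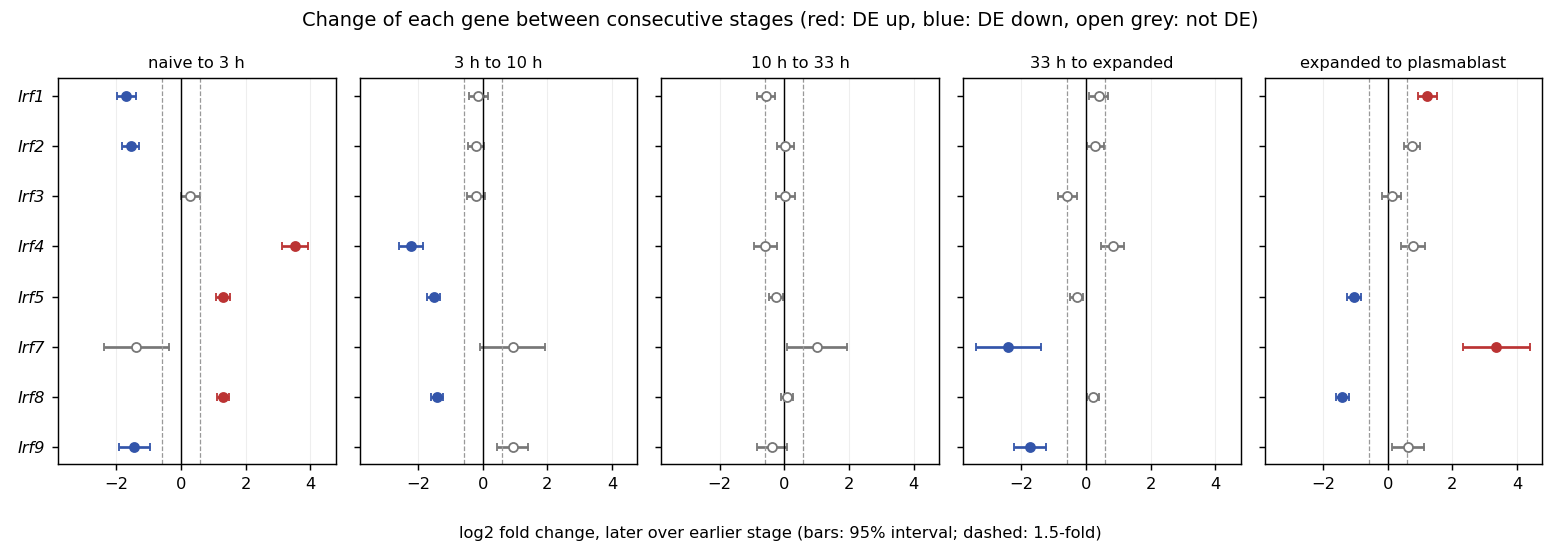
Fitted log2 fold change of each gene (rows) at the 5 consecutive transitions (panels), with bars for the 95% interval and dashed lines at 1.5-fold, red where DE up, blue where DE down and open grey where not DE. The DE symbols crowd into the first 2 panels and the last, the 10 h to 33 h panel has none, and the bars of Irf7 are the widest in every panel.

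Because RPKM is per length, the 2 lymphoid members can be set against each other within a library. In naive cells Irf4 was at 0.304 and 0.277 times the level of Irf8, a log2 ratio of -1.78 ± 0.09 (SD, n = 2). At 3 h the ratio was 0.43 ± 0.37, at 10 h -0.37 ± 0.05, at 33 h -1.05 ± 0.51 and in expanded cells -0.45 ± 0.10. In plasmablasts Irf4 stood 2.99 and 3.69 times above Irf8, a log2 ratio of 1.73 ± 0.21. Irf4 therefore exceeded Irf8 in 4 of the 12 libraries, those at 3 h and the plasmablasts, with the naive and plasmablast values at the extremes of the order. The 33 h replicates were the farthest apart. Taken as counts without the length correction, the ratio was higher by the same amount in every stage, and its sign changed at 10 h and in expanded cells. The design, with 2 libraries a stage, allows no two-sided permutation p below 0.33 for a comparison of 2 stages, so no test was made on the ratio.

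**Figure D3:**
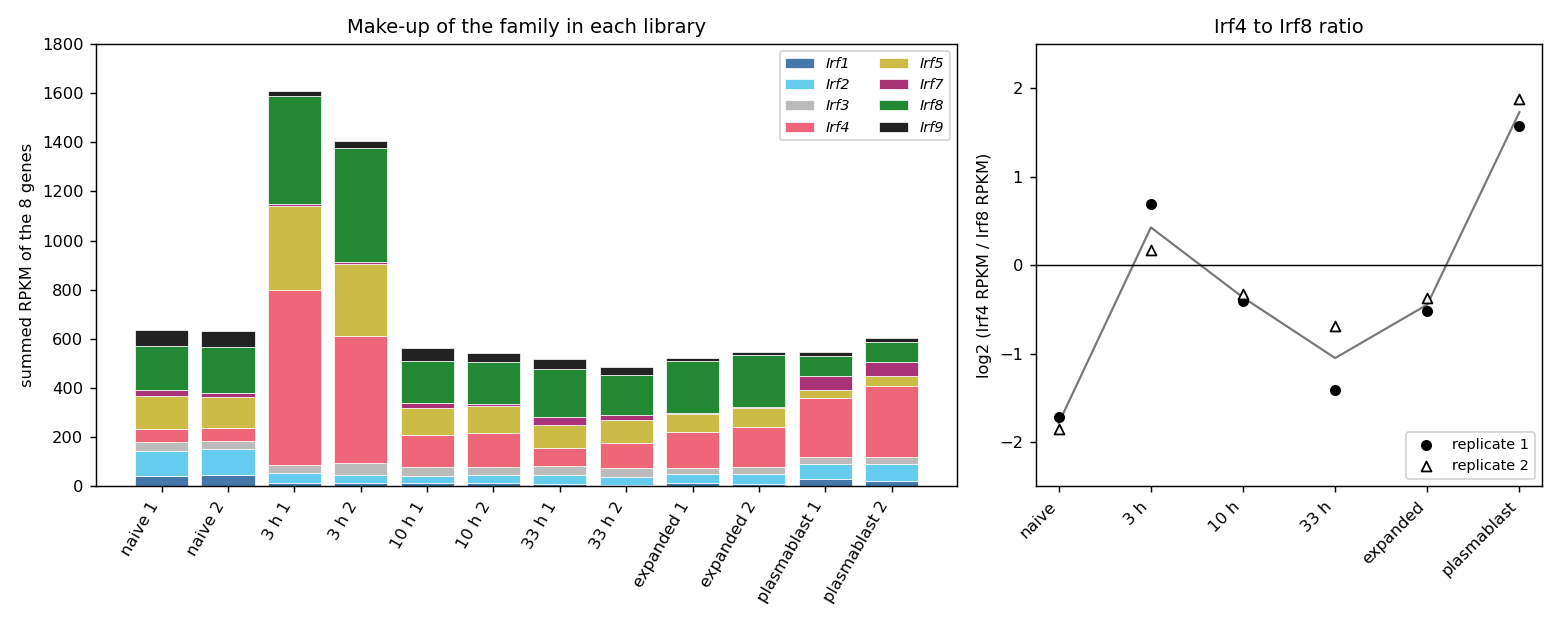
Left, the RPKM of the 8 genes stacked in each library (linear axis from 0); right, the log2 ratio of Irf4 to Irf8 in each library with a line through the stage means. The 3 h libraries hold the tallest stacks, 1609 and 1406 RPKM, and the ratio is above 0 at 3 h and in plasmablasts and lowest in naive cells.

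The summed level of the family was 638 and 631 RPKM in the naive libraries and 1609 and 1406 RPKM in the 3 h libraries. All later libraries lay between 485 and 602 RPKM. The plasmablast sums, 546 and 602 RPKM, lay somewhat below the naive ones, with another make-up. TMM factors were 0.852 and 0.839 in plasmablasts and 1.03 in both naive libraries, so this comparison depends on the scaling. Irf8 took 28.9% of the naive sum and Irf5 20.5%, with Irf4 at 8.38%. In plasmablasts Irf4 took 46.3%, Irf8 14.0%, Irf2 11.5% and Irf7 9.75%, while Irf5 was down to 6.47%. Irf8 was the leading member by share at 10 h, 33 h and in expanded cells (30.7%, 35.8% and 39.6%).

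The known DNA-binding partners of IRF4 and IRF8 were listed as well. Of 8 listed ETS and AP-1 genes, 7 were tested, of which 3 were DE up and 0 down to 3 h, 0 and 5 to 10 h, 1 and 1 to 33 h, 0 and 0 to expanded cells, and 0 and 3 to plasmablasts. The total DE was 3, 5, 2, 0 and 3 of 7, beside 45.3%, 30.8%, 14.5%, 10.6% and 26.1% of all tested genes, and thus near that share at 3 h. The median log2 changes were 0.46, -0.99, -0.02, -0.02 and -0.35, where those of all tested genes were -0.03, 0.02, -0.02, -0.02 and -0.05. Spi1, encoding PU.1, was at 117 and 121 RPKM in the naive libraries and 48.4 and 52.7 in the plasmablast pair, a fall of -1.23 ± 0.10 (glmTreat adjusted p = 8.6e-06), and its only DE step was that from 3 h to 10 h (-0.88 ± 0.10, adjusted p = 0.0059). Spib was at 415 and 429 RPKM in the naive libraries, 625 and 532 in the 3 h pair, 118 and 119 in the expanded pair and 2.68 and 2.57 in the plasmablast pair. Its fall at the last step, -5.50 ± 0.16 (glmTreat adjusted p = 2.2e-10), was larger than that of any member, and the DE genes Batf (-0.94 ± 0.09) and Batf3 fell there as well. Batf and Jun had risen by 2.91 and 3.12 on the log2 scale at 3 h. Batf3 had 0 counts in all 4 libraries at 3 h and 10 h and 36 and 19 counts at 33 h.

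Genes described elsewhere as targets of IRF4 or IRF8 were listed with knowledge of earlier results on these data, so their direction is no independent evidence. Of the 8, the numbers DE up and down were 2 and 2, 2 and 1, 2 and 1, 2 and 1, and 1 and 4 at the 5 transitions in order. Both directions together, 4, 3, 3, 3 and 5 of 8 stood beside 45.3%, 30.8%, 14.5%, 10.6% and 26.1% of all tested genes, with median log2 changes of 0.13, 0.11, 0.41, 0.16 and -0.49. Prdm1, encoding Blimp-1, rose at 3 h (glmTreat adjusted p = 0.0059), 10 h (1.65 ± 0.25), in expanded cells (2.38 ± 0.23) and in plasmablasts (1.26 ± 0.21), where the fitted change of Irf4 was 0.78. Ciita, the regulator of MHC class II genes, fell by 5.11 on the log2 scale from expanded cells to plasmablasts. Il10 had 0 and 1 counts in naive cells and 222 and 450 at 3 h.

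Irf5, which acts behind MyD88 in the Toll-like receptor response, followed Irf8 in direction at each step where either was DE. It was at 135 and 125 RPKM in the naive libraries, 344 and 293 in the 3 h pair, 112 and 111 in the 10 h pair, 93.9 and 92.5 in the 33 h pair, 75.3 and 76.9 in the expanded pair and 34.4 and 39.9 in the plasmablast pair. After 3 h every stage lay below the one before it with no overlap between libraries. The log2 changes were 1.29 ± 0.10 to 3 h (adjusted p = 3.4e-06), -1.52 ± 0.10 to 10 h (adjusted p = 1.2e-06) and -1.03 ± 0.10 to plasmablasts (adjusted p = 3.7e-04), and over the whole course -1.81 ± 0.10 (adjusted p = 2.7e-08, all by glmTreat). The steps to 33 h and to expanded cells were smaller than 1.5-fold, with 95% intervals of -0.46 to -0.05 and -0.50 to -0.09. Irf5 overlaps Tnpo3 in the annotation. The counting was not stated to use strand, so reads in the shared stretch could not be assigned with certainty, and Tnpo3 was DE at the first of these steps alone (0.84, glmTreat adjusted p = 0.0032), where both genes rose.

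Irf1 and Irf2, the activator and its antagonist, shared a course opposite to that of Irf4 at activation. Irf1 was at 41.6 and 46.0 RPKM in the naive libraries, 13.7 and 13.5 in the 3 h pair, 12.1 and 12.6 in the 10 h pair, 9.39 and 7.25 in the 33 h pair, 11.8 and 10.2 in the expanded pair and 28.3 and 23.0 in the plasmablast pair. Irf2 was at 103 and 107 RPKM in the naive libraries, 40.1 and 32.0 in the 3 h pair, 29.8 and 32.8 in the 10 h pair, 35.1 and 29.1 in the 33 h pair, 37.3 and 41.1 in the expanded pair and 63.9 and 67.9 in the plasmablast pair. For both genes the naive libraries were highest, the plasmablasts came next, and the 4 stages in between lay below with no library reaching the plasmablasts. Irf1 fell at 3 h by 1.69 on the log2 scale (SE 0.14, glmTreat adjusted p = 2.4e-06) and Irf2 by 1.55 (SE 0.12, adjusted p = 2.2e-06). In plasmablasts Irf1 rose by 1.23 ± 0.14 (adjusted p = 3.0e-04), and Irf2 was 0.75 ± 0.12 higher, which differed from 0 (F-test adjusted p = 1.3e-04 in edgeR) but not from 1.5-fold (glmTreat adjusted p = 0.098). With only the 4 libraries of that step in the fit, or without either 3 h library, Irf2 passed (edgeR adjusted p = 0.0038, 0.047 and 0.028). From naive cells to plasmablasts the fitted change of Irf1 was -0.77 (glmTreat adjusted p = 0.056) and passed in 10 of 22 alternatives, and that of Irf2 was -0.68 (adjusted p = 0.16) and passed in 2. Over the 12 libraries the log2 RPKM of Irf1 and Irf2 had a Pearson correlation of 0.95, a description in which replicates of a stage share that stage.

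Irf3, which is held ready in the cytoplasm and activated by TBK1, changed least. It lay between 23.5 and 47.9 RPKM in all libraries, its highest stage mean was 1.66 times its lowest, and it was DE at 0 of the 5 transitions. The largest step was that from 33 h (36.4 and 37.4 RPKM) to expanded cells (23.5 and 26.1 RPKM), -0.57 with a 95% interval of -0.86 to -0.29, which passed the F-test (adjusted p = 0.0040 in edgeR) without passing 1.5-fold. The order of its other stages was not settled, since the 3 h, 33 h, 10 h and naive levels overlapped, and with library size alone as the scale its highest and lowest stages became 10 h and plasmablast. Irf3 lies 9 bases from Bcl2l12 and 97 bases from Scaf1. Bcl2l12, a gene related to BCL2, was DE at 3 transitions where Irf3 was not, with log2 changes of -0.94, 1.26 and, to plasmablasts, -1.30 (glmTreat adjusted p = 0.020, 9.7e-04 and 6.0e-04).

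Irf9 and Irf7, the members tied most closely to the interferon response, were the 2 called DE between 33 h and expanded cells. Irf9 was at 68.6 and 62.3 RPKM in the naive libraries, 18.9 and 29.3 in the 3 h pair, 54.1 and 38.1 in the 10 h pair, 40.2 and 30.2 in the 33 h pair, 11.4 and 9.74 in the expanded pair and 17.2 and 15.4 in the plasmablast pair. It fell at 3 h by 1.44 on the log2 scale (SE 0.22, glmTreat adjusted p = 0.0011) and between 33 h and expanded cells by 1.74 (SE 0.22, adjusted p = 0.0012), and it ended 2.01 lower on that scale in plasmablasts than in naive cells (adjusted p = 3.9e-05). The return at 10 h, 0.93 ± 0.22, passed the F-test but not 1.5-fold (glmTreat adjusted p = 0.065). It passed in 5 of 24 alternatives. These were the fits without replicate 2 at 3 h (1.25) or at 10 h (1.16), and that with library size alone (1.25, edgeR adjusted p = 0.0071). The others had no filter (0.94, edgeR adjusted p = 0.0012) or the crossed replicate term (0.95, edgeR adjusted p = 0.0041). The crossed term was added after the data were seen. With the same 4 libraries paired as labelled, the return did not pass (0.94, edgeR adjusted p = 0.13).

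Irf7, a regulator of type I interferon production that is itself induced by interferon, reached its highest level in plasmablasts. It was at 22.1 and 17.1 RPKM in the naive libraries, 7.05 and 8.04 in the 3 h pair, 21.8 and 6.78 in the 10 h pair, 35.9 and 21.9 in the 33 h pair, 4.98 and 5.96 in the expanded pair and 53.9 and 57.8 in the plasmablast pair. The plasmablasts lay above all other libraries and the expanded cells below all others, while the 33 h, naive, 10 h and 3 h values overlapped in turn. The rise from expanded cells to plasmablasts was 10.2-fold, 3.36 ± 0.46 on the log2 scale (glmTreat adjusted p = 4.0e-04). The fall from 33 h to expanded cells was -2.41 ± 0.45 (glmTreat adjusted p = 0.0094). It lost its call in 5 of the 12 fits that leave out a library, namely either 3 h library, replicate 1 at 33 h or either expanded library, with edgeR adjusted p of 0.076, 0.082, 0.083, 0.079 and 0.052. The net rise from naive cells, 1.51 ± 0.43 (glmTreat adjusted p = 0.029), lost its call in 5 such fits too, with library size alone (1.22, adjusted p = 0.065) and with DESeq2's Wald test (adjusted p = 0.16). The 5 fits were those without naive replicate 2, either 3 h library or either plasmablast library (edgeR adjusted p between 0.054 and 0.10). The fall at 3 h, -1.37 ± 0.45, did not pass (glmTreat adjusted p = 0.061), but it passed in 9 of 22 alternatives. These were library size alone, no filter or a stricter one, dispersions without robust mode, a replicate block and the 4 libraries of the step alone. The rest left out naive replicate 2 or either 10 h library, and all 9 gave log2 changes of -1.33 to -1.58. With no filter the change was -1.39 (edgeR adjusted p = 1.5e-09), and that fit also called Irf7 up from 3 h to 10 h and from 10 h to 33 h. The other fits on both replicates gave edgeR adjusted p from 0.0023 to 0.037.

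The 2 replicates of the 10 h stage differed 3.22-fold in Irf7, farther than 98.7% of tested genes at that stage. Most of the interferon-stimulated genes on the list (37, all tested) lay the same way there. Of the 36 with counts in both libraries, 34 were higher in replicate 1, by a median of 1.62-fold, and at 33 h 33 of 37 were, by 1.25-fold, whereas at 3 h 9 of 36 were. Irf9 was at 54.1 and 38.1 RPKM at 10 h, also higher in replicate 1, while Irf1, Irf2, Irf3, Irf4, Irf5 and Irf8 differed between these replicates by at most 1.10-fold. Without replicate 1 at 10 h, the Irf7 change from 3 h to 10 h turned from 0.93 to -0.16 (edgeR adjusted p = 1) and the change from 10 h to 33 h became DE (2.09, adjusted p = 7.6e-04). Without replicate 2 it was the step from 3 h to 10 h that was DE (1.53, adjusted p = 0.0028 in edgeR).

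**Figure D4:**
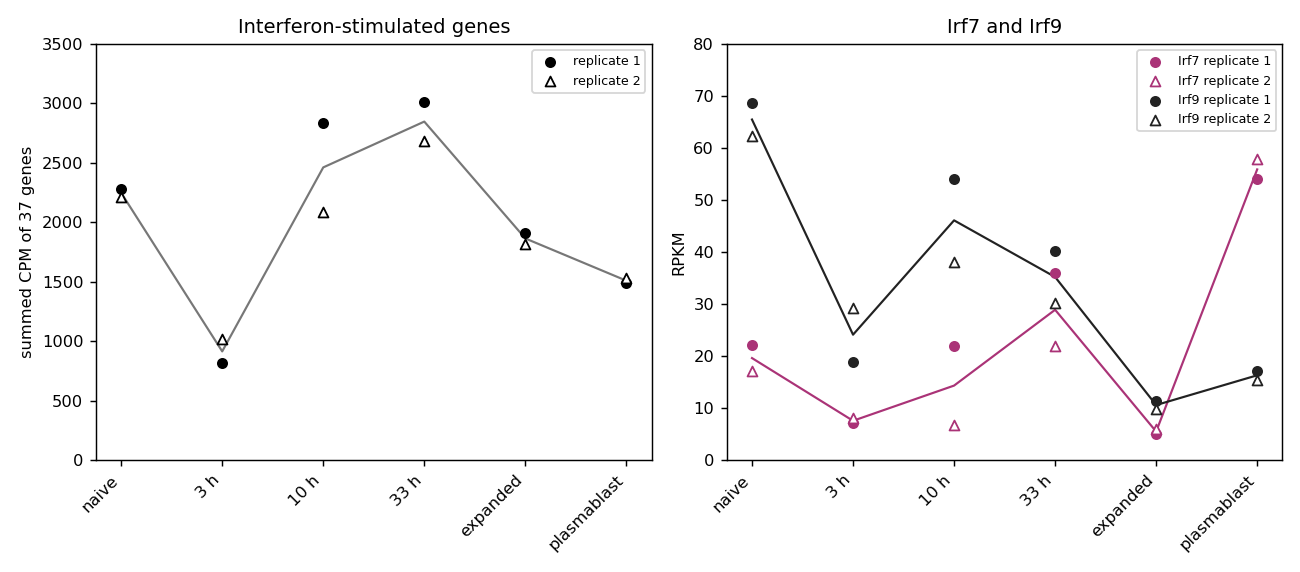
Left, the summed CPM of 37 interferon-stimulated genes in each library; right, the RPKM of Irf7 and Irf9 in the same libraries, with circles for replicate 1, triangles for replicate 2 and lines through the stage means. Replicate 1 is above replicate 2 in all 3 quantities at 10 h and 33 h, and Irf7 is highest in plasmablasts, where the listed genes sum to 1485 and 1532 CPM. CPM is relative to total counts without TMM scaling, while RPKM is TMM-scaled, so the 2 panels differ in scale.

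The interferon-stimulated genes as a list fell at 3 h, rose at 10 h and fell again in expanded cells. Of the 37, 2 were DE up and 21 down at 3 h (median log2 change -1.66, against -0.03 over all tested genes), 22 up and 0 down at 10 h (1.65), 6 up and 1 down at 33 h (0.49), 0 up and 23 down in expanded cells (-1.65), and 2 up and 6 down in plasmablasts (-0.010), beside 45.3%, 30.8%, 14.5%, 10.6% and 26.1% of all tested genes DE in either direction. At 3 h Ccl5 (-5.43 ± 0.64) and Cmpk2 (-4.95 ± 0.45) fell furthest, whereas Cxcl10 (5.68 ± 0.33) and Isg15 (2.32 ± 0.19) rose. Ccl5 went from 154 and 75 counts in naive cells to 4 and 0, so the size of its fall rests on few counts. Cmpk2 had 12 and 57 counts at 3 h. In expanded cells Ifi44 (-5.68 ± 1.40) and Rtp4 (-5.55 ± 0.79) fell furthest, of which Ifi44 was a gene of few counts (32 and 4 at 10 h). At the last step, where Irf7 rose 10.2-fold, the 2 DE genes that rose were Zbp1 (1.98 ± 0.35), a sensor of Z-form nucleic acid, and Bst2 (1.29 ± 0.15), which encodes tetherin, and Gbp2 (-4.05 ± 0.23) and Ifit2 (-3.48 ± 0.66) fell furthest. The summed level of the list was 1913 and 1815 CPM in expanded cells and 1485 and 1532 CPM in plasmablasts. These sums are relative to total counts and were not scaled by TMM. TMM factors were 1.07 in both expanded libraries and 0.852 and 0.839 in plasmablasts, so the direction of this difference depends on the scaling. After TMM scaling the median log2 change of the list was -0.010, beside the 10.2-fold rise of Irf7. The 3 markers of plasmacytoid dendritic cells, which hold much Irf7, summed to 5.97 and 8.79 CPM in expanded cells and 33.3 and 29.0 CPM in plasmablasts, the direction of Irf7, and their part in its rise was not tested. Ly6c2 went from 40 and 80 to 577 and 701 counts (mean 2.12 to 30.7 RPKM) and Ccr9 from 208 and 227 to 491 and 444 counts (mean 1.37 to 4.15 RPKM), while Siglech had 2 and 2 and then 5 and 1 counts.

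Receptors and signalling proteins above these genes formed another list. Of 11 genes of interferon receptor signalling, 2 were DE up and 2 down at 3 h, 3 up and 3 down at 10 h, 0 up and 2 down at 33 h, 0 up and 3 down in expanded cells, and 2 up and 0 down in plasmablasts. The total DE was 4, 6, 2, 3 and 2 of 11 at the transitions in order, beside 45.3%, 30.8%, 14.5%, 10.6% and 26.1% of all tested genes, so at 3 h and in plasmablasts the list lay below that share. Its median log2 changes were -0.08, -0.30, -0.25, -0.56 and 0.45. Stat2, a partner of IRF9, fell at 3 h by 2.80 on the log2 scale and rose at 10 h by 1.64 ± 0.19. These were the directions of Irf9, whose own rise at 10 h was not DE. From 33 h to expanded cells, where Irf9 was DE down, Stat2 was not DE (-0.38 ± 0.18). Usp18, an interferon-induced brake on the receptor, rose at 10 h (2.42 ± 0.65) and fell in expanded cells (-4.70 ± 0.71). In plasmablasts Ifnar2, a chain of the type I interferon receptor, rose by 1.57 ± 0.11 and Jak2 by 0.89 ± 0.10. Over the whole course 0 of the 11 were DE up and 6 down, Ifngr1 furthest (-2.85 ± 0.13). Of all tested genes 26.6% were up and 23.4% down, so the 6 of 11 called stood near the total of 50.0%.

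Interferon genes themselves were barely read. Of 20 listed, 1 passed the filter, Ifng, with 14 and 19 counts in plasmablasts and 0 to 6 in every other library (4.36 ± 0.92 from expanded cells, glmTreat adjusted p = 0.0026). Among the T cell markers given above, Cd3g was also highest in plasmablasts, Cd3d and Cd4 were not, and their part in the Ifng counts was not tested. Ifnb1 had 0 or 1 counts in each library, and the sum over the 20 genes was 0.651 and 0.582 CPM in plasmablasts and at most 0.272 CPM elsewhere, where 3 counts correspond to 0.0495 to 0.130 CPM depending on the library. Such counts do not allow a change of the type I interferon genes to be seen at this depth.

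The route from LPS and nucleic acid sensors to IRF3, IRF5 and IRF7 was tested over 22 genes, since Tlr7 and Irak1 are X-linked and were removed. Of these, 6 were DE up and 8 down at 3 h, 6 up and 4 down at 10 h, 2 up and 0 down at 33 h, 0 up and 2 down in expanded cells, and 3 up and 3 down in plasmablasts. The total DE was 14, 10, 2, 2 and 6 of 22, beside 45.3%, 30.8%, 14.5%, 10.6% and 26.1% of all tested genes, below that share at 33 h and near it in expanded cells and plasmablasts. The median log2 changes were -0.40, -0.00433, -0.09, -0.09 and 0.19. Tlr4, the LPS receptor, fell by 5.64 ± 0.35 at 3 h, from 6.96 and 6.74 to 0.029 and 0.205 RPKM (2 and 24 counts), and rose by 3.37 ± 0.38 at 10 h. Cd14, its co-receptor, had 17 counts in each naive library and 0 in each 3 h library. Cd14 is itself on the list of 8 myeloid and dendritic markers given above. Of the others on that list, all but Flt3 were lower at 3 h than in naive cells. The part of myeloid cells in the change of Cd14 was not tested. Ticam2 (2.13 ± 0.12) and Ikbke (1.67 ± 0.34) rose furthest at 3 h. Ifih1, an RNA sensor, rose at 10 h (1.76 ± 0.19) and 33 h (1.73 ± 0.17) and fell in expanded cells (-1.59 ± 0.17), the step at which Irf7 and Irf9 fell. In plasmablasts Tlr9 fell furthest, from 24.9 and 27.0 to 0.268 and 0.305 RPKM (-6.49 ± 0.23), and Ly96 rose furthest (1.43 ± 0.20).

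Proteins that bind or modify IRFs made up the last list. Of 9 listed, 4 were DE up and 3 down at 3 h, 4 up and 2 down at 10 h, 0 up and 2 down at 33 h, 0 up and 1 down in expanded cells, and 0 up and 3 down in plasmablasts. The total DE was 7, 6, 2, 1 and 3 of 9, beside 45.3%, 30.8%, 14.5%, 10.6% and 26.1% of all tested genes, near that share in expanded cells. The median log2 changes were 0.12, 0.02, -0.06, -0.44 and -0.62. Irf2bp2 (2.67 ± 0.17) and Swap70 (2.29 ± 0.09) rose furthest at 3 h, Swap70, which binds IRF4, reaching 1245 and 1110 RPKM. Irf2bpl (-2.88 ± 0.12) and Trim21 (-2.22 ± 0.20) fell furthest. Irf2bp2 and Irf2bpl, both named for binding IRF2, thus moved in opposite directions while Irf2 fell. Over the whole course 2 were DE up and 5 down, beside 26.6% and 23.4% of all tested genes, and Trim21 fell furthest (-2.75 ± 0.21).

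Among the 5616 tested genes averaging 5 or more in log2 CPM, those whose log2 RPKM followed a member most closely over the 12 libraries were listed by Pearson correlation, as a description of libraries that share stages in pairs. Irf4 was followed by Cd44 (0.99), Ube2g2 (0.98) and Dnajc13 (0.98), Irf5 by Akna (0.99), Cdk9 (0.99) and Polr3f (0.99), and Irf8 by Sh3bp5 (0.97), Il4i1 (0.96) and Rbpj (0.95). Irf2 was followed by Tspan14 (0.98), Sp3 (0.98) and Itsn2 (0.98), Irf1 by Rps3 (0.97), Dmxl1 (0.96) and Dennd6a (0.96), and Irf9 by Pitpnm2 (0.97), Exoc7 (0.97) and Cd2ap (0.96). Irf7 and Irf3 had the weakest first matches. Those of Irf7 were Ly6a (0.90), Tapbp (0.87) and Ifi27l2a (0.86), and those of Irf3 were Lrrc14 (0.92), Scaf1 (0.90), its neighbour, and Nfx1 (0.89). Within the family, Irf5 and Irf8 followed each other at 0.93, and Irf7 and Irf8 had the most negative value, -0.73. By Spearman correlation the leading match of Irf4 ranked 3 and that of Irf5 ranked 73, so these names depend on the measure.

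Other neighbours on the chromosome moved with a member at some steps and without it at others. Irf4 is flanked by Dusp22 at 38000 bases and Exoc2 at 22534 bases, of which neither was DE at 3 h (0.07 and -0.05) where Irf4 rose by 3.53. In plasmablasts Dusp22 was DE up from expanded cells (1.77, glmTreat adjusted p = 8.4e-07) and from naive cells (0.83, adjusted p = 0.015), the direction of Irf4, and Exoc2 was lower than in naive cells (-0.99, adjusted p = 2.7e-04). Tspan33, 152344 bases from Irf5 and with 711 counts over the 12 libraries, was DE in the direction of Irf5 at all 3 transitions where Irf5 was DE (3.97, -2.07 and -1.78). It was also DE up in expanded cells (1.25), where Irf5 was not. Phrf1, 431 bases from Irf7, was DE at the first step alone (0.73) and changed by 0.10 in plasmablasts where Irf7 rose. Rnf31, 310 bases from Irf9, was DE at none of the 5 transitions. Cox4i1, 62148 bases from Irf8, was DE up in expanded cells (0.76, glmTreat adjusted p = 0.042), where Irf8 was not DE. From naive cells to plasmablasts Cox4i1 was DE up (0.85, glmTreat adjusted p = 9.4e-04), while Irf8 was DE down. Enpp6, 91738 bases from Irf2 and with 198 counts over the 12 libraries, was DE up from expanded cells to plasmablasts (2.01, glmTreat adjusted p = 0.0076). Gm16675, a noncoding gene 229 bases before Irf2, fell at 3 h (-3.06) and rose in plasmablasts (1.59, glmTreat adjusted p = 5.1e-04), the directions of Irf2. At 3 h the low-count neighbours Rec8 of Irf9 (-3.09) and Gm12216 of Irf1 (-2.10) were DE down with those genes.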

How the data were processed

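RNA-Seq was available for 12 libraries of mouse splenic B cells, 2 biological replicates at each of 6 stages, grouped by the labels. The authors prepared TruSeq libraries, aligned reads to mm10 with Rsubread 1.28.0 and counted them with featureCounts on its inbuilt Entrez annotation, with the strand setting not given in the sources used here. The deposited values are raw counts per gene with exon lengths, and the 12 single-sample tables held the same values. After removal of 1904 genes with no annotation entry, 1279 X and Y, 15 mitochondrial, 33 ribosomal RNA and 248 variable immunoglobulin genes, filterByExpr kept 12750 of 23700 genes, with 84.0% to 90.6% of counts retained before that filter. Libraries were scaled by TMM and fitted in a one-way layout of all 12 libraries with edgeR 4.0.16 (R 4.3.3, robust quasi-likelihood of earlier versions). glmTreat against 1.5-fold gave DE genes and the F-test changes of any size, each Benjamini-Hochberg adjusted at 0.05 over all tested genes. SE is the log2 fold change over the root of F, and RPKM was computed from TMM-scaled library sizes. Promoter windows came from RefSeq GRCm38.p6. The steps were tested on simulated data. Alternatives were DESeq2 1.42.0 (size factors or Wald test), library size alone, other filters and dispersions, a replicate term, the 4 libraries compared alone, keeping removed genes and leaving out each library. Added after the data were seen were a crossed replicate term and single replicates at 10 h and 33 h. Members and gene lists were chosen with earlier results of these data known. Named list genes are those DE with the largest rises and falls. Others named were chosen after their values were seen. Results for some genes are not reported here.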

Additional observations from a re-analysis of the deposited data

How the results depend on the processing

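Of 20 DE calls on members at the 5 consecutive transitions and from naive cells to plasmablasts, the 17 on genes other than Irf7 kept their direction and their call in all 380 checks under the alternatives, and the 3 on Irf7 lost their call in 12 of 66 without a change of direction. Without a fold threshold (F-test), the number of members called was 3 from 10 h to 33 h, 6 to expanded cells, 7 to plasmablasts and 8 from naive cells to plasmablasts. With no filter on low counts, glmTreat called 5 members from 3 h to 10 h and 1 from 10 h to 33 h. Of all 17091 genes in that fit, 2325 were called up and 1712 down at the first of these steps, and 1452 and 613 at the second. Library size alone, which shifted the median log2 change of all genes by -0.21, 0.33, -0.06, -0.01 and -0.34 at the transitions in order, gave the other sign for changes that were not DE: 0.19 for Irf1, 0.13 for Irf2 and 0.13 for Irf3 from 3 h to 10 h, -0.022 for Irf2 and -0.024 for Irf3 from 10 h to 33 h, and -0.22 for Irf3 to plasmablasts. It also gained calls for Irf1 (-1.05, adjusted p = 0.0013) and Irf2 (-0.96, adjusted p = 0.0014) from naive cells to plasmablasts, Irf7 to 3 h (-1.58, adjusted p = 0.028) and Irf9 from 3 h to 10 h (1.25, adjusted p = 0.0071, all by edgeR). Over all alternatives, calls were gained by 9 changes that were not DE, most often Irf1 from naive cells to plasmablasts (10 of 22 alternatives), Irf7 at 3 h (9 of 22) and Irf9 at 10 h (5 of 24). Leaving out each library in turn gave 3 to 5 DE members from 3 h to 10 h, 0 to 1 from 10 h to 33 h and 1 to 3 from 33 h to expanded cells, and 1 to 3 and 3 to 8 changed at any size at the latter 2 transitions. It turned the sign of Irf3 (-0.41 to 0.022) and Irf7 (-0.16 to 1.53) from 3 h to 10 h and of Irf2 (-0.11 to 0.16), Irf3 (-0.012 to 0.082) and Irf8 (-0.047 to 0.20) from 10 h to 33 h. Counts without length gave Irf4 to Irf8 log2 ratios of -1.06, 1.15, 0.36, -0.32, 0.28 and 2.46 in the order of the stages, which follows from the constant length term. Same-numbered libraries deviated from their stage means with correlations of -0.14 to 0.08, so the numbers were not taken to pair samples. A replicate block gave 7, 3, 0, 2, 4 and 6 DE members (the last from naive cells to plasmablasts). It added Irf7 at 3 h (adjusted p = 0.037 in edgeR) and Irf1 from naive cells to plasmablasts (adjusted p = 0.044 in edgeR). Over all 12750 tested genes the block called 2664 up and 3089 down at 3 h, against 2674 and 3100 without it. From naive cells to plasmablasts it called 3382 and 2975, against 3386 and 2985. With 4 libraries, the crossed pairing of 3 h and 10 h called 2067 genes up and 1591 down and the labelled one 1535 and 1192. The cause of these differences was not tested. With 2 libraries a stage, p-values rest on the spread shared by all stages, and Irf7 had the widest intervals.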
